A study of Mus musculus with 8 samples.

Results

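The genes described here belong to 7 families of RNA-binding proteins that act in pre-mRNA splicing: the SR proteins (Srsf genes), the heterogeneous nuclear ribonucleoproteins (Hnrnp genes), the SF3a and SF3b subunits of the U2 particle (Sf3 genes), the Rbm genes named for an RNA-binding motif, and the tissue-biased regulators of the Rbfox, Mbnl and Celf families. Members were all genes whose array probe set carried exactly 1 gene symbol with one of these family names, with the brightest probe set taken where a gene had several. The rule used no difference between conditions, and it found 68 of the 14860 genes tested: 10 Srsf, 13 Hnrnp, 8 Sf3, 26 Rbm, 3 Rbfox, 3 Mbnl and 5 Celf genes. The muscle was the tibialis anterior of male C57BL/6 mice aged 8 weeks. The left sciatic nerve had been cut 7 days before both muscles were taken, giving 4 arrays of denervated muscle and 4 of innervated muscle from the opposite leg. The innervated controls therefore came from operated animals. RNA was amplified from 50 ng per sample, and values are log2 intensities, on which a change of 1 is a 2-fold difference; a change is always denervated minus innervated. Intensities of different probe sets are not amounts that can be set against each other.

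Splicing joins the exons of a pre-mRNA on the spliceosome, and the proteins of these families decide where and how efficiently it assembles. SR proteins typically bind exons and promote their inclusion, hnRNP proteins often do the reverse, and SF3 subunits hold the U2 particle on the branch point of every major-class intron. In striated muscle, MBNL and CELF proteins act in opposite senses on a set of developmentally switched exons, and RBFOX proteins bind beside many muscle exons. Gene-level intensities record the mRNA of these factors, not their activity or the exons they control. Some Rbm proteins have other main roles, as given below.

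No member passed the test. In limma's moderated fit of the group difference, with arrays of equal replicate number as a block, 0 of 68 members had an adjusted p under 0.05, whereas 8.45% of all genes did, 3.56% higher and 4.89% lower after denervation. The lowest adjusted p among members was 0.054, for Sf3a3. At an unadjusted p under 0.05 there were 14 members higher and 6 lower, or 20.6% and 8.82% of the members, against 10.2% and 11.5% of all genes. By family, they were 5 Sf3, 4 Rbm, 2 Hnrnp, 1 Srsf, 1 Mbnl and 1 Celf gene on the higher side, and 2 Rbm, 2 Mbnl, 1 Hnrnp and 1 Srsf gene on the lower side. The changes were small, from -0.60 for Rbm8a to 0.49 for Mbnl3. Only Rbm8a (1.47% of the members) changed by at least 0.5 in size, which 10.3% of all genes did. For 67 of the 68 members the 95% confidence interval of the change lay within -1 and 1, that is, within a 2-fold difference either way, as it did for 93.0% of all genes. The exception was Rbm8a, with an interval from -1.17 to -0.03. 

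Of the 12 alternative settings, 8 gave between 1 and 7 members past the threshold. With a random replicate block 5 members passed as higher and 2 as lower (4.14% and 5.71% of all genes), and with array weights, which give replicate 3 the least say, again 5 and 2 (7.12% and 7.69%). Cyclic loess normalization gave 2 and 0 (4.74% and 5.41%), and leaving out the dimmest 25% of genes gave 2 and 1 (5.86% and 7.9%). The mean over a gene's probe sets gave 1 and 0 (3.55% and 4.88%), as did trended moderation (3.92% and 5.25%). No replicate block gave 0 and 0 (2.19% and 3.19%), and so did quantile normalization (3.93% and 4.83%). Without replicates 1 to 4 in turn, the counts were 0 and 0 (0.922% and 1.41%), 0 and 0 (1.51% and 2.87%), 1 and 1 (5.8% and 5.26%) and 0 and 1 (1.18% and 2.09%). Set against these shares, 5 of 68 higher members lie above the share of all genes with the random replicate block and about at it with array weights, and every other count of members here lies below it.

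The members leaned to the higher side. The change was above 0 for 49 of 68 members (72.1%) and for 48.9% of all genes, and the median change was 0.15 for the members and -0.01 for all genes. In each pair of same-numbered arrays the members' median was above 0, at 0.09, 0.18, 0.13 and 0.18 in pairs 1 to 4, where the median of all genes was 0.03, -0.07, 0.03 and -0.04. Of the members, 25 were higher in all 4 pairs and 5 lower in all 4, or 36.8% and 7.35%, against 13.1% and 15.8% of all genes. The denervated arrays lay wholly above the innervated ones for 10 members (14.7%; 5.32% of all genes) and wholly below for 2 members (2.94%; 7.4% of all genes). These counts describe the families and carry no test. Most members were bright, with 55 of 68 above the median gene, and only Mbnl3 and Rbm11 were among the dimmest 25% of genes. The shares of all genes given here are not matched for brightness, and its part in the lean was not tested.

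**Figure D1:**
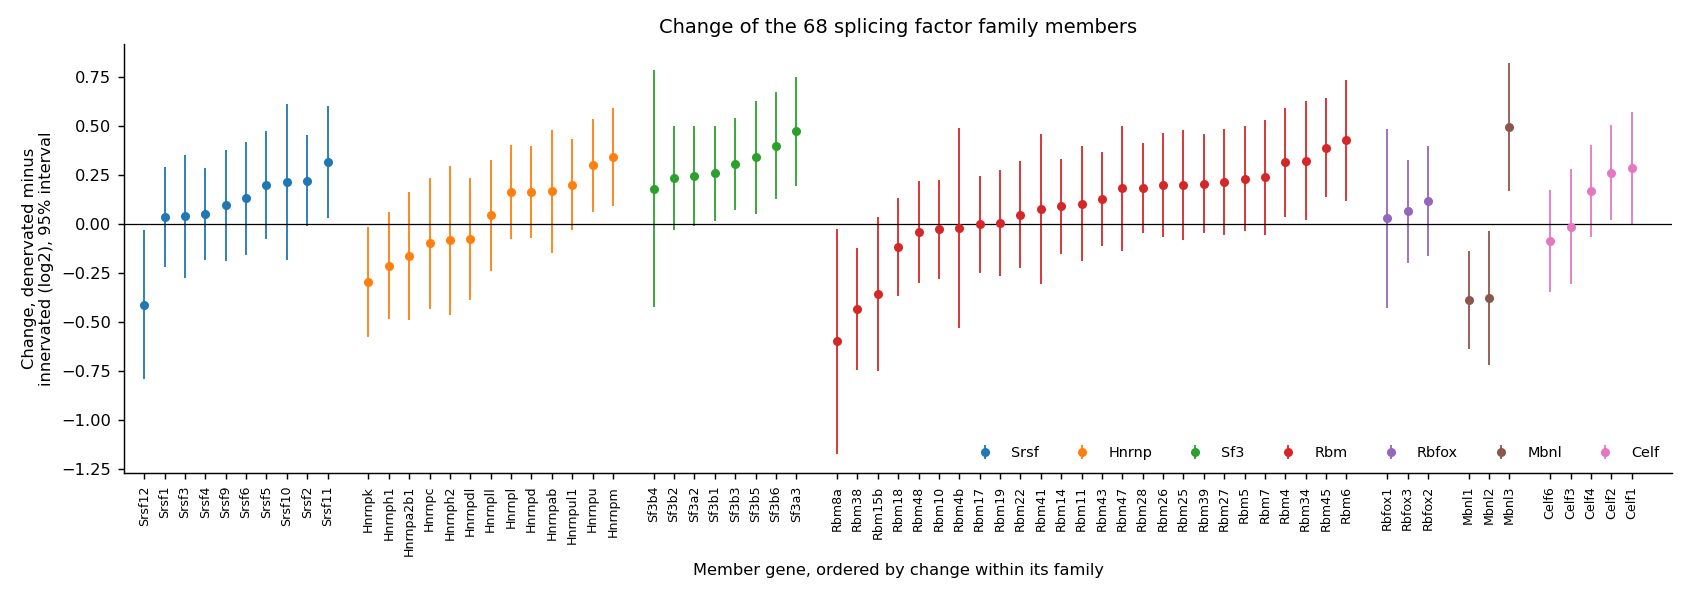
Change of each of the 68 members, denervated minus innervated, in log2 units, with its 95% confidence interval from limma; members are ordered by change within their family, and colours mark the families. All 8 Sf3 points lie above 0, Mbnl1 and Mbnl2 lie below it and Mbnl3 above, and only the interval of Rbm8a reaches beyond 1 in size.

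The arrays were similar in overall level, with medians between 5.84 and 6.00, but replicate 3 stood apart: the SD over probe sets was 1.36 on its innervated and 1.25 on its denervated array, against 1.45 to 1.56 on the other 6. Markers of the muscle fibre were bright, as the labelled tissue requires, and 3 of 12 (Ckm, Myl1 and Mylpf) fell. Of 11 leukocyte and macrophage markers 4 rose, and the mean level of that list ran from 5.88 to 6.24 on the innervated and from 6.38 to 7.58 on the denervated arrays, highest on denervated replicate 3. Of 8 endothelial markers 3 fell, and of 9 fibroblast markers 2 rose (Postn by 1.67 and Lum by 0.60). The fibroblast list was divided, with 6 of 9 below 0 and a median of -0.07. In it, 3 genes were lower at an unadjusted limma p under 0.05. Pmp22 of the Schwann cell list changed by -1.63, Cd34 of the satellite cell list by -0.42 and Mki67 of the proliferating cell list by 0.78, each the 1 gene of its list past the threshold. The Schwann cell list did not follow Pmp22, with 4 of 6 above 0 and a median of 0.10. In the satellite cell list 4 of 6 were below 0, and in the proliferating cell list 3 of 4 were above 0. The adipocyte and neuron lists had 0 of 5 and 0 of 6 past it. In whole muscle, fewer cells of a type and less RNA per cell cannot be told apart, and the part of these cell types in the values below was not tested.

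Of the 7 families, Sf3 had the highest share of pair values above 0. All 8 measured members had a change above 0, at a median of 0.28, and the medians of the 4 pairs varied with an SD of 0.11. Of the 32 single pair values 31 were positive, the exception being Sf3b4 in pair 2. By comparison, 48.5% of the pair values of all genes were positive. An unadjusted p under 0.05 was reached by 5 of the 8, all higher, where 10.2% of all genes were higher at that level. An adjusted p under 0.05 was reached by 0 of 8, where 3.56% of all genes were higher. The denervated arrays lay wholly above the innervated ones for 3 of the 8, and for 5.32% of all genes. Sf3a3, a subunit of the SF3a complex that brings U2 into its active form, measured 7.23, 7.15, 7.49 and 7.54 on innervated arrays 1 to 4 and 7.45, 7.86, 8.08 and 7.90 on the denervated ones. Each denervated array exceeded its own pair, although the groups overlapped because denervated replicate 1 was below innervated 3 and 4. The change was 0.47 (SE 0.12, 95% interval 0.19 to 0.75, limma adjusted p = 0.054), or 1.39-fold. This gene passed in 5 of 12 alternative settings, among them a random replicate block (adjusted p = 0.0446) and the fit without the dimmest 25% of genes (0.0307), and its adjusted p was as high as 0.191 in others.

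Sf3b6, the small SF3b subunit that lies at the branch point adenosine, read 7.43, 7.32, 7.14 and 7.29 in innervated and 7.65, 7.55, 7.80 and 7.77 in denervated muscle. The groups did not overlap, and the change was 0.40 (SE 0.12, adjusted p = 0.089). Sf3b1, the large scaffold subunit that is often mutated in blood cancers, read 9.16, 9.08, 9.04 and 9.03 against 9.27, 9.37, 9.41 and 9.29. Its groups were also separate, with a spread of only 0.06 and 0.07 (SD, n = 4), and its change was 0.26 (SE 0.10, adjusted p = 0.201). Sf3b5, another small subunit, was at 7.68, 7.72, 7.42 and 7.84 against 8.31, 7.89, 7.87 and 7.95, likewise without overlap. Its change of 0.34 (SE 0.12, adjusted p = 0.159) came mostly from pairs 1 and 3, at 0.62 and 0.45, with 0.17 and 0.11 in pairs 2 and 4. Sf3b3 changed by 0.31, Sf3a2 by 0.25 and Sf3b2 by 0.23, each higher in all 4 pairs. Sf3b4 had the widest spread of the family, at 5.43, 6.45, 5.59 and 5.03 innervated, and its change of 0.18 had an interval from -0.43 to 0.78. Over the alternative settings its change ran from -0.015 to 0.55, so not every setting kept all 8 genes above 0.

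**Figure D2:**
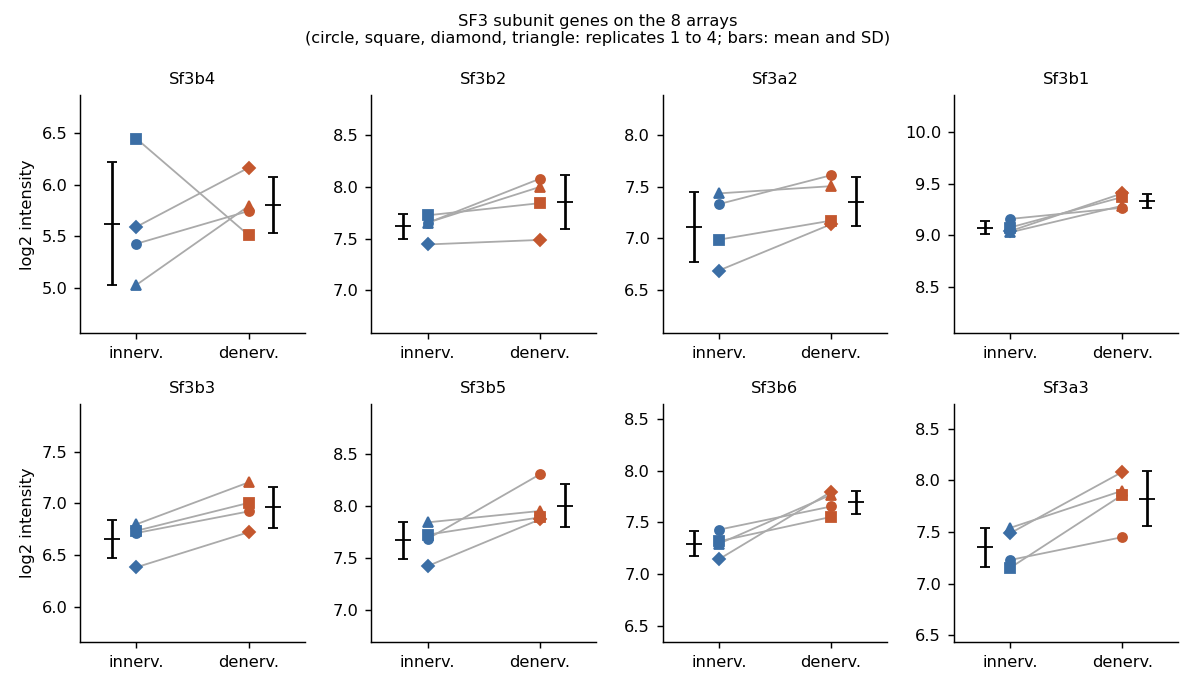
The 8 Sf3 genes on the 8 arrays, in log2 intensity; grey lines join arrays of the same replicate number, and the bars beside the points are the mean and SD of 4 arrays. Every panel spans the same range of log2 units; the lines slope upward except for Sf3b4 in replicate 2.

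Because the 8 Sf3 changes lay on the same side of 0 in the fit with the replicate block, promoter windows are shown. They are those of Sf3a3 and Sf3b6, the Sf3 members with the lowest p, and of Sf3b1. Each window runs from 250 bases before to 50 after the RefSeq gene start (GRCm38.p6) and is written 5′ to 3′ on the gene's strand. Capitals mark CCGGAA on either strand, the core of sites bound by ETS-family factors, chosen after the windows were seen. The windows are chr4:124714611-124714910 (plus strand), chr12:4817358-4817657 (plus strand) and chr1:55027429-55027728 (minus strand).
Sf3a3: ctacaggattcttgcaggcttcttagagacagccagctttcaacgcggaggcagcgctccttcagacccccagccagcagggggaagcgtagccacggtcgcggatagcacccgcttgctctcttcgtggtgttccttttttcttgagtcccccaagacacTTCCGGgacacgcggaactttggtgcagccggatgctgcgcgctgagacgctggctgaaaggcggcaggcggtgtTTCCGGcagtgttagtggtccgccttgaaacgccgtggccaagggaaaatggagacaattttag
Sf3b6: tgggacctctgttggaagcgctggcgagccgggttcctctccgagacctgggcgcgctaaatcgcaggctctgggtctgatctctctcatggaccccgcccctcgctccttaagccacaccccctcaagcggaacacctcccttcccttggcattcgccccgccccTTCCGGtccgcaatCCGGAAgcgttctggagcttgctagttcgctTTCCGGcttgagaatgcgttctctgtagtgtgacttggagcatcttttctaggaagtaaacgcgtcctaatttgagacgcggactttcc
Sf3b1: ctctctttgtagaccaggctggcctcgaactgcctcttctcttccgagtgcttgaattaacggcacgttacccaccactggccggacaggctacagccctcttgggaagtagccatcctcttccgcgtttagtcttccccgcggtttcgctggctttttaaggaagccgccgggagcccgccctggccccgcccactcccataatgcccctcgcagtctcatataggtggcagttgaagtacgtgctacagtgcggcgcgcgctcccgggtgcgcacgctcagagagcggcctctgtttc
The Sf3a3 window holds 2 copies of CCGGAA, the Sf3b6 window 3 and the Sf3b1 window 0. Of the 6 Sf3 genes with a window in the table, 5 had at least 1 copy. The motif occurs in 31.0% of the 87 windows of 60 members and in 14.9% of all 32841 windows. CCGGAA itself holds a CG, and these sets of windows were not matched for CG content. With the motif also chosen after the windows were seen, the shares cannot show an enrichment in the members. The 3 windows hold 22, 23 and 24 CG dinucleotides, close to the median of 23 over the members' windows, where the median of all windows is 7. All 3 lack CCAAT and TATAAA on either strand, which occur in 37.4% and 13.6% of all windows. Gene-level intensities do not bear on whether any factor binds there.

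Among the SR proteins, 9 of 10 genes had a change above 0, yet the family's median of 0.11 was smaller than the SD of its pair medians, 0.16. The pair medians were -0.07, 0.19, 0.30 and 0.05. Srsf11, a serine- and arginine-rich protein that also associates with U2AF, read 7.43, 7.20, 7.21 and 7.42 innervated and 7.46, 7.64, 7.77 and 7.64 denervated. The groups were just separate, and the change was 0.32 (SE 0.12, 95% interval 0.03 to 0.60, adjusted p = 0.184). Srsf2, an exonic enhancer-binding protein, was higher in all 4 pairs, at 8.63, 8.64, 8.39 and 8.51 against 8.74, 8.91, 8.62 and 8.76, a change of 0.22 (SE 0.10, adjusted p = 0.259). Srsf5, the brightest Srsf probe set, stood at 10.68, 10.48, 10.48 and 10.40 against 10.57, 10.72, 10.84 and 10.70, with pair 1 in the opposite direction to the others.

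Srsf1, the founding SR protein, was nearly level, with 9.10 ± 0.02 innervated and 9.13 ± 0.15 denervated (SD, n = 4), and its change of 0.04 had a 95% interval from -0.22 to 0.29. Srsf3, which regulates splicing and RNA export, read 7.63, 7.58, 7.71 and 7.56 against 7.44, 7.72, 8.12 and 7.35. Its pairs had no common direction, and the change of 0.04 (interval -0.27 to 0.35) became -0.085 without replicate 3. Srsf4, Srsf6 and Srsf10, the last an SR protein that represses splicing when dephosphorylated, changed by 0.05, 0.13 and 0.21, with adjusted p of 0.861, 0.647 and 0.569. The largest change in size was that of Srsf12, from 5.62, 6.13, 6.32 and 5.79 to 5.59, 5.49, 5.44 and 5.69. Lower values appeared in all 4 pairs but mainly in pairs 2 and 3, and the change was -0.41 (SE 0.16, adjusted p = 0.192). Its group means, 5.97 and 5.55, lay within and below the range of the array medians.

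The hnRNP genes divided in direction, with 7 of 13 above and 6 below 0 and a median of 0.04 (SD over pairs 0.10). Hnrnpm, whose protein binds GU-rich introns, measured 9.64, 9.41, 9.53 and 9.49 innervated and 9.79, 9.74, 9.90 and 10.00 denervated. Hnrnpu, a chromatin- and RNA-binding scaffold protein, measured 9.58, 9.64, 9.67 and 9.58 against 9.83, 9.88, 9.94 and 10.02. Neither gene's groups overlapped. The changes were 0.34 (SE 0.11, adjusted p = 0.107) for Hnrnpm and 0.30 (SE 0.10, adjusted p = 0.134) for Hnrnpu. With array weights, which gave replicate 3 the lowest weight, both passed (adjusted p of 0.0408 and 0.0484). Hnrnpm passed in 2 of the 12 alternative settings and Hnrnpu in 1, with adjusted p up to 0.405 and 0.463. Hnrnpd, the AU-rich element-binding protein AUF1, was also separate between groups, at 8.78, 8.81, 8.75 and 8.79 against 8.83, 9.03, 8.92 and 9.01, but its change was only 0.16 (SE 0.10, adjusted p = 0.425).

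On the lower side, Hnrnpk, a poly(C)-binding protein, read 8.68, 8.74, 9.14 and 8.67 innervated and 8.12, 8.74, 8.82 and 8.36 denervated. The groups overlapped, pair 2 was level, and the change was -0.30 (SE 0.12, 95% interval -0.58 to -0.02, adjusted p = 0.206). Hnrnph1, which binds G runs, read 10.65, 10.52, 10.66 and 10.58 against 10.31, 10.27, 10.75 and 10.24. It was lower in 3 pairs and higher in pair 3, with a change of -0.21 (adjusted p = 0.357). Hnrnpa2b1, a close relative of the splicing repressor hnRNP A1, changed by -0.16 (interval -0.49 to 0.16), of which pair 1 gave -0.62. For Hnrnpc, whose protein packages nascent transcripts by binding uridine runs, the values were 7.93, 8.31, 8.17 and 8.20 against 8.10, 7.74, 8.07 and 8.30. Its change was -0.10, mostly from pair 2, and became 0.056 without replicate 2. Hnrnpl, which binds CA repeats, was higher in all 4 pairs by 0.06 to 0.25, with an adjusted p of 0.444.

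The Rbm genes form the most numerous family, with 18 of 26 above 0, a median of 0.11 (SD over pairs 0.06) and changes from -0.60 to 0.42. Rbm45, an RNA-binding protein that self-associates, read 6.76, 6.68, 6.71 and 6.71 innervated, a spread of 0.03 (SD), and 7.21, 7.04, 6.90 and 7.27 denervated. The groups were clearly apart, and the change was 0.39 (SE 0.11, 95% interval 0.13 to 0.64, adjusted p = 0.0764). It passed in 5 of the 12 alternative settings, with adjusted p from 0.0142 to 0.323. Rbm6, a relative of the apoptosis-linked splicing regulator Rbm5, read 7.72, 7.37, 7.48 and 7.64 against 7.81, 8.12, 8.00 and 7.98. These groups were separate too, with a change of 0.42 (SE 0.13, adjusted p = 0.103). Rbm5 itself changed by 0.23 (adjusted p = 0.309) and was higher in all 4 pairs. Rbm39, a coactivator related to U2AF and the brightest probe set of this family, changed by 0.20 (adjusted p = 0.338).

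Rbm38 and Rbm8a were on the lower side. Rbm38, a p53-induced protein that promotes cell cycle arrest and muscle differentiation through p21 mRNA, read 7.24, 7.24, 6.99 and 7.57 innervated and 6.72, 6.86, 6.92 and 6.81 denervated. Every denervated array was below every innervated one, and the change was -0.43 (SE 0.13, 95% interval -0.74 to -0.12, adjusted p = 0.101). Pair 3 gave only -0.07, and without replicate 3 the change was -0.55 and passed (adjusted p = 0.0268). Rbm38 passed in 3 of the 12 alternative settings. Its change ran from -0.56 to -0.32 over them, with adjusted p up to 0.377. Rbm8a encodes the exon junction complex protein Y14, which marks spliced mRNAs. It read 5.95, 5.92, 5.86 and 5.02 against 5.43, 4.74, 4.78 and 5.40, so pairs 1 to 3 were lower and pair 4 was higher. The change was -0.60 (SE 0.25, adjusted p = 0.211), or -0.93 without replicate 4 (adjusted p = 0.0352). Rbm8a passed in only this 1 of the 12 alternative settings. Its change ran from -0.93 to -0.30 over them, with adjusted p up to 0.517. The denervated mean of 5.09 lay in the range of the arrays' lower quartiles (4.98 to 5.36). Among the remaining Rbm genes the changes ran from -0.36 for Rbm15b, an adaptor of the RNA methylation complex, to 0.32 for Rbm34.

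The 3 Mbnl genes did not share a direction. Mbnl1, the main muscleblind protein of adult muscle, which is sequestered by repeat RNA in myotonic dystrophy, measured 10.31, 10.29, 10.30 and 10.26 on the innervated arrays, a spread of 0.03 (SD). On the denervated arrays it measured 9.82, 10.09, 9.80 and 9.91. All denervated values were lower, and the change was -0.39 (SE 0.11, 95% interval -0.64 to -0.14, adjusted p = 0.0743), or 0.765 times the innervated intensity. The gene passed in 3 of 12 alternative settings, with adjusted p between 0.0259 and 0.264 over the 12. Its change ran from -0.45 to -0.26 over them and was smallest in size after quantile (-0.258) and cyclic loess normalization (-0.261). Mbnl2, its paralogue, read 9.45, 9.21, 9.26 and 9.43 against 9.05, 9.16, 8.41 and 9.23. It was lower in all 4 pairs, but the groups overlapped and pair 3 gave -0.86 where pair 2 gave -0.05. The change was -0.38 (SE 0.15, adjusted p = 0.184), and ran from -0.49 to -0.22 over the alternative settings.

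Mbnl3, the muscleblind gene of proliferating myoblasts and fetal tissue, was dim, at 3.86, 4.09, 4.30 and 4.41 innervated and 4.45, 4.76, 4.98 and 4.42 denervated. The denervated values were higher, although innervated 4 and denervated 4 were practically equal. The change was 0.49 (SE 0.14, 95% interval 0.17 to 0.82, adjusted p = 0.0793). Both means were under the 25th percentile of each of the 8 arrays, and no detection value was at hand to separate such intensities from background. The mean level of the 4 markers of proliferating cells ran from 4.87 to 5.46 on the innervated arrays, was 6.37 on denervated replicate 3 and at most 5.36 on the other 3 denervated arrays, and its part in the Mbnl3 value was not tested.

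Of the Celf genes, Celf1 and Celf2, the forms known from muscle and heart, were on the higher side. Celf1 read 7.73, 7.75, 7.81 and 7.78 innervated and 8.27, 8.00, 7.77 and 8.14 denervated. Denervated replicate 3 lay among the innervated values while the other 3 were above them, and the change was 0.28 (SE 0.12, adjusted p = 0.242). A second Celf1 probe set differed more, from 6.94 ± 0.63 to 7.96 ± 0.69 (SD, n = 4), with pair values of -0.01, 2.02, 1.59 and 0.49, so the 2 probe sets of this gene disagreed in size. With the mean of both, the change was 0.65 and passed (adjusted p = 0.0432). Celf1 passed in only this 1 of the 12 alternative settings. Over them its change was as low as 0.19 and its adjusted p as high as 0.589. Celf2 read 7.58, 7.60, 7.24 and 7.66 against 7.75, 8.03, 7.47 and 7.88, higher in all 4 pairs with overlapping groups, a change of 0.26 (SE 0.10, adjusted p = 0.2). Its second, dimmer probe set changed by 0.23. Celf3, Celf4 and Celf6, known mainly from the nervous system, were dim and changed by -0.01, 0.17 and -0.09.

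In the Rbfox family, Rbfox1 and Rbfox2, the forms known from muscle, shared an array that stood apart. Rbfox1 read 9.14, 9.19, 9.06 and 9.35 innervated and 9.55, 9.48, 8.29 and 9.53 denervated. Rbfox2 read 7.97, 7.77, 7.61 and 7.84 against 8.14, 8.03, 7.39 and 8.09. In both genes pairs 1, 2 and 4 were higher and pair 3 was lower, by -0.77 for Rbfox1 and -0.22 for Rbfox2. The changes over 4 pairs were 0.03 (95% interval -0.43 to 0.48) and 0.12 (interval -0.16 to 0.40). Without replicate 3 they were 0.29 (adjusted p = 0.142) and 0.23 (adjusted p = 0.223), so neither passed in either fit. On denervated replicate 3 the muscle fibre markers also had their lowest mean level, 10.39 against 10.89 to 11.05 on the other denervated arrays, and the part of this in the Rbfox values was not tested. Rbfox3, the neuronal nuclear antigen NeuN, was near the array medians in both groups and changed by 0.06 (interval -0.20 to 0.33).

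**Figure D3:**
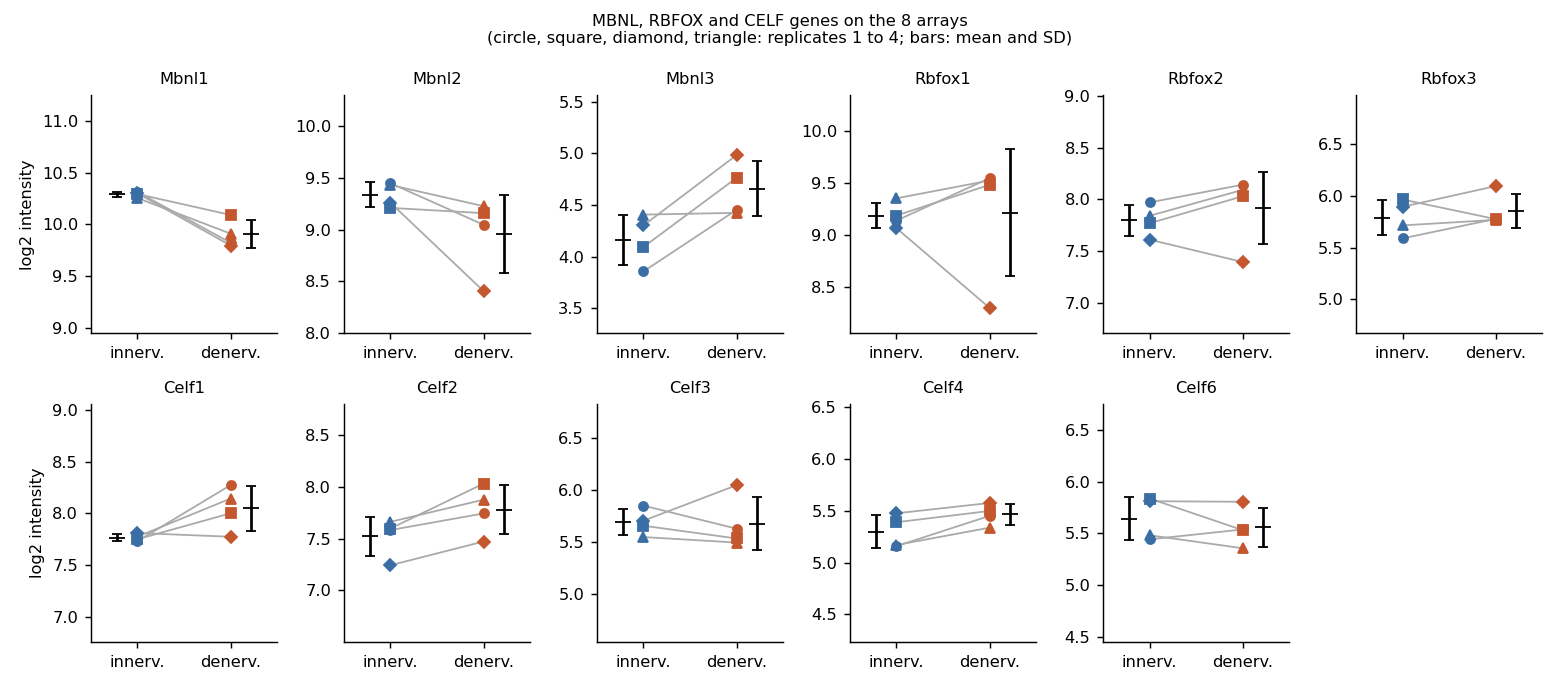
The Mbnl, Rbfox and Celf genes on the 8 arrays, in log2 intensity; grey lines join arrays of the same replicate number, and bars give the mean and SD of 4 arrays. Mbnl1 is lower on every denervated array, and denervated replicate 3 (diamonds) falls to 8.29 in Rbfox1 while the other 3 denervated values are between 9.48 and 9.55.

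Set side by side, the pair medians were steadiest in the Celf and Rbm families and widest in the Rbfox, Mbnl and Srsf families, with SDs of 0.03, 0.06, 0.22, 0.20 and 0.16. These SDs were not adjusted for family size, which runs from 3 to 26 genes. The Mbnl median was below 0 in all 4 pairs (-0.40, -0.05, -0.51 and -0.20). With 3 genes in the Mbnl family, each of its medians is the value of 1 gene, Mbnl1 or Mbnl2. Mbnl3 was higher in all 4 pairs. The Sf3 median was above 0 in all 4 pairs (0.25, 0.21, 0.45 and 0.35). The difference between the Mbnl and Sf3 families was not tested.

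**Figure D4:**
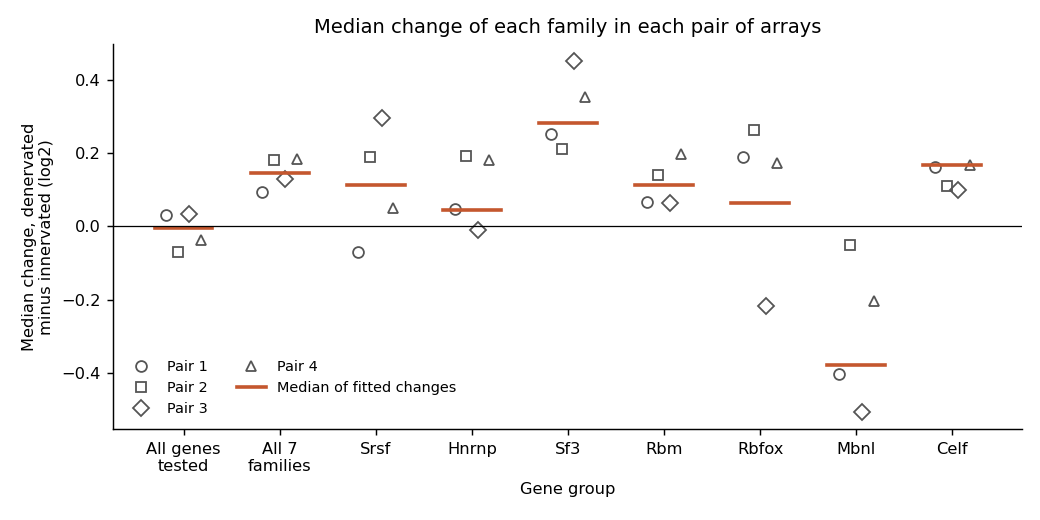
Median change, denervated minus innervated, of all genes tested, of all 68 members and of each family in each of the 4 pairs of arrays (log2; symbols), with the median of the fitted changes as a bar. The 4 Sf3 symbols lie between 0.21 and 0.45, the 4 Mbnl symbols (medians of 3 genes) below 0, and the Rbfox symbol of pair 3 at -0.22.

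Other splicing genes were read from lists of snRNP proteins, splice site and assembly factors, SR kinases, SR-like proteins and further RNA-binding regulators, of which 118 of 150 listed genes were measured. Of these 118, 9 rose and 1 fell, or 7.63% and 0.85%, against 3.56% and 4.89% of all genes. Their median change was 0.11, close to the 0.15 of the 7 families, and 78 of 118 (66.1%) were above 0. In pairs 1 to 4 their medians were 0.09, 0.18, -0.002 and 0.12. The list of SR kinases had a median of -0.04, with 4 of 9 above 0, and the medians of the other lists ran from 0.06 to 0.19. Of the 9 rises, 5 were among the 45 further RNA-binding regulators and 1 among the 27 snRNP genes. The count of rises varied with the replicates: without replicate 1 only Pspc1 rose, without replicates 2 and 4 0 did, and without replicate 3 there were 13. Over all genes the count of rises moved likewise, from 529 to 137, 225, 862 and 176 without replicates 1 to 4.

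Among the genes past the threshold, the largest rises were in RNA-binding regulators. Cirbp, the cold-inducible RNA-binding protein, went from 7.68, 7.50, 7.59 and 7.59 to 8.46, 8.38, 7.97 and 8.39, a rise of 0.71 (SE 0.12, limma adjusted p = 0.0126). Pspc1 and Sfpq encode paraspeckle proteins that form dimers. Pspc1 went from 7.02, 6.96, 7.08 and 7.15 to 7.39, 7.70, 7.85 and 7.93, a rise of 0.67 (SE 0.12, adjusted p = 0.0136), and Sfpq from 8.89 ± 0.09 to 9.45 ± 0.22 (SD, n = 4), a rise of 0.55 (SE 0.13, adjusted p = 0.0432). The groups of all 3 genes were separate. Fubp1, a single-strand DNA- and RNA-binding protein, rose by 0.57 (SE 0.11, adjusted p = 0.0223). Snrpb2, the U2 snRNP protein B″, rose by 0.51 (SE 0.12, adjusted p = 0.047), with overlapping groups, and passed in 5 of the 12 alternative settings. Named after their values were seen, to complete the count, Snw1 and Syf2 of the catalytic spliceosome rose by 0.47 and 0.45, the nuclear matrix protein Matr3 by 0.44 and the SR-like protein Scaf11 by 0.40. The calls of Snrpb2, Snw1 and Scaf11 were lost without the replicate block, those of Snrpb2 and Sfpq after quantile normalization, that of Snrpb2 with a random replicate block and that of Sfpq after cyclic loess.

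Khdrbs3, which encodes the STAR-family splicing regulator SLM2 (T-STAR), was the gene that fell. It went from 7.35, 7.37, 6.97 and 7.46 to 6.14, 6.69, 6.42 and 6.34, with every denervated array below every innervated one. The change was -0.89 (SE 0.14, 95% interval -1.22 to -0.56, adjusted p = 0.0102), or 0.541 times the innervated intensity. It was larger in size than the change of any of the 68 family members. It passed in 10 of the 12 alternative settings. Without replicates 1 and 4 it did not pass, at changes of -0.78 (adjusted p = 0.0718) and -0.81 (adjusted p = 0.0549).

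**Figure D5:**
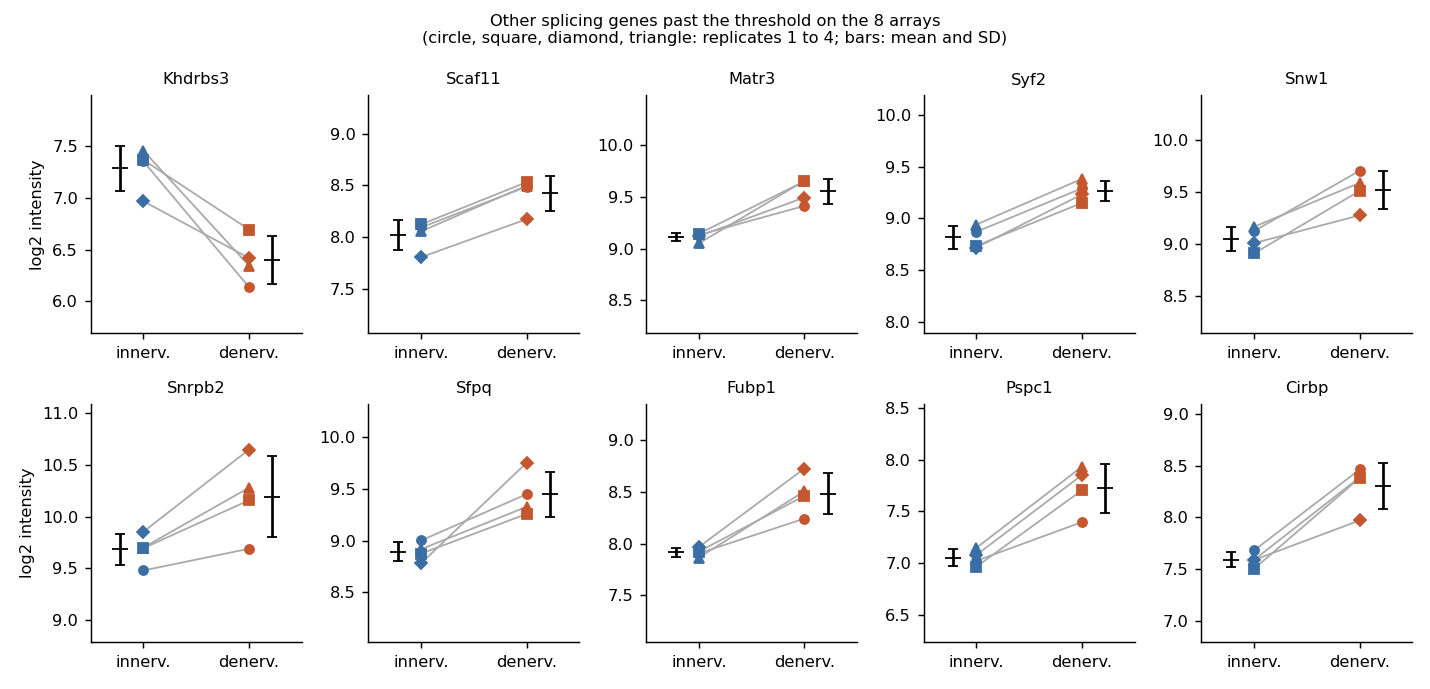
The 10 other splicing genes past the threshold on the 8 arrays, in log2 intensity, ordered by change; grey lines join arrays of the same replicate number, and bars give the mean and SD of 4 arrays. Khdrbs3 is the only one with lower denervated values, and the other 9 are higher in all 4 pairs.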

How the data were processed

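RNA of 8 tibialis anterior samples was hybridised to oligonucleotide arrays. The deposited log2 intensities, 1 per probe set and array, come from GCOS and RMA, and the submitters' processing notes name mm9. Software versions and filters are not known here. All 8 arrays were used. Of 16755 probe sets, 14996 had 1 gene symbol; 10 with several symbols that include one of these families were left out by the rule. Of the 68 members, 3 had a second probe set. All 68 were found in the RefSeq gene table by Entrez ID. Rbm3, Rbm20, Rbm24, Srsf7, Hnrnpa1 and Sf3a1 are not analysed here.

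Genes were tested with limma 3.58.1 in R 4.3.3 (group plus block, empirical Bayes, two-sided, Benjamini-Hochberg over 14860 genes, threshold 0.05; 3 residual and 4.57 prior degrees of freedom). The block follows the submitters' design text, which sets each denervated muscle against its contralateral one. The labels leave unsaid whether a shared number means a shared animal, and whether replicates are separate animals, so p-values cover the spread among these 8 samples and may be technical. The code was tested on simulated data. There it recovered 24 of 80 added changes of 0.5, 59 of 60 of 1 and 60 of 60 of 2. A change of 0.5 or less can therefore be missed at this threshold. Members, lists and named genes were chosen with earlier results of these data known. Named were members past the threshold, those with non-overlapping groups, the brightest and most changed of each family, and genes of known roles; others complete a count. Alternatives were no block, a random block, quantile and cyclic loess normalization, the dimmest 25% left out, mean probe sets, trended moderation, array weights and each replicate number left out. Promoter sequences are from RefSeq (GRCm38.p6).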

Additional observations from a re-analysis of the deposited data

Results flagged for a closer look

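In 7 of 70 groups of 4 arrays, taken over the 35 named members, 1 array lay far from the other 3, by a gap above Dixon's 95% critical value. For normally distributed values, chance alone would give this in about 1 of 20 groups. The 70 groups share the same 8 arrays, and some members were named for their values. That rate therefore cannot serve as a test of the 7. Denervated replicate 3, whose array stood apart over all probe sets, accounted for 4 of the 7. It read 8.29 for Rbfox1, where the others were between 9.48 and 9.55, and 7.39 for Rbfox2, where they were between 8.03 and 8.14. It was the high value for Rbfox3, at 6.10 against 5.77 to 5.78, and for Hnrnph1, at 10.75 against 10.24 to 10.31. Denervated replicate 1 was low for Srsf1, at 8.91 against 9.18 to 9.23. Innervated replicate 3 was high for Hnrnpk, at 9.14 against 8.67 to 8.74. Innervated replicate 4 was low for Rbm8a, at 5.02 against 5.86 to 5.95. What sets these arrays apart was not tested.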

How the results depend on the processing

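The members' count was 0 in both directions without the replicate block, after quantile normalization and without replicates 1 and 2. It was 5 higher and 2 lower with a random replicate block (Hnrnpm, Rbm45, Rbm6, Sf3a3 and Sf3b6; Mbnl1 and Rbm38) and 5 higher and 2 lower with array weights (Hnrnpu in place of Rbm6). It was 2 higher after cyclic loess, 2 higher and 1 lower with the dimmest 25% left out, and 1 higher with mean probe sets (Celf1) and with trended moderation (Sf3a3). Leaving out a replicate number gave 0 to 1 higher and 0 to 1 lower. These counts stand against 4.14% higher and 5.71% lower of all genes with the random block and 7.12% and 7.69% with array weights. The other splicing genes counted 17 higher and 3 lower with array weights, 2 lower with the dimmest 25% left out, and 0 to 13 higher and 0 to 2 lower with a replicate left out. All genes counted 326 higher and 474 lower without the replicate block, 1058 and 1142 with array weights, and 137 to 862 higher and 210 to 781 lower with a replicate left out. Family medians kept their sign except that of Hnrnp, which was -0.0026 without replicate 4 and ran from that to 0.13 over the 4 fits; the Celf median ran from 0.13 to 0.19. Of 35 named members, Srsf3 turned to -0.075 with array weights and ran from -0.085 to 0.12 with a replicate left out, Hnrnpc ran from -0.19 to 0.056, and Rbfox1 from -0.10 to 0.29, with -0.063 and -0.021 between. Of the 419 values of the named members over all alternatives, these 6 reversed, 24 passed the threshold in the same direction, and 389 kept direction and side. The cause of each change was not tested, except that fits with a replicate left out hold fewer arrays. Deviations of same-numbered arrays from their group means correlated at 0.23, -0.03, 0.45 and 0.35 for numbers 1 to 4, and not every array matched its own number best, so the pairing is not shown by the data. The 4 arrays a group limit the precision for all genes, and the lack of detection values limits what can be said of dim ones.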
